A study of Mus musculus with 15 samples.

Results

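Sterol and fatty acid synthesis genes were followed in colon scrapings of male mice of the inbred laboratory strain C57BL/6. They form a list of 35 genes covering cholesterol synthesis, its control by sterol sensing, fatty acid synthesis and sterol export, and 34 of them were analysed, of 18194 genes with a probe set of their own. A gene was represented by the probe set that the array annotation gives to that symbol alone, taking the one with the highest mean over the 15 arrays. Acat2 was not analysed here. Heme mice (9 mice) were fed heme, the iron-porphyrin pigment of red meat, at 0.5 umol per g in a diet high in fat and low in calcium, and control mice (6 mice) ate the same diet without heme. In both diets fat gave 40% of the energy. Both diets lasted 14 days, the mice were 11 weeks old, and each mouse was measured alone on 1 Affymetrix array.

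Cells make cholesterol from acetyl-CoA through mevalonate, isoprenoids, squalene and lanosterol, and fatty acids from the same acetyl-CoA. The transcription factors SREBP-2 (gene Srebf2) and SREBP-1 (gene Srebf1) switch on the sterol and fatty acid enzymes. When sterol is ample, Insig proteins hold SREBP and its escort Scap in the endoplasmic reticulum, and when it is scarce SREBP is cut and enters the nucleus. The liver X receptors (LXR), which sense oxysterols, act the other way and induce the exporters that remove sterol from the cell. In the intestine these genes serve the renewal of epithelial membranes and the balance between absorbed and newly made sterol.

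Values are log2 expression per probe set. The floor was set at a signal of 20, which is 4.32 in log2, and genes over it on at least 6 arrays were tested with limma, adjusting over all 9257 of them by Benjamini-Hochberg at a threshold of 0.05. With heme 27.2% of the tested genes were higher and 26.4% were lower, so 53.6% differed in either direction, and the median log2 fold change was -0.0062. All heme mice lay above all controls for 11.2% of tested genes and below all controls for 8.93%. Of the analysed members 32 were tested, and 24 of them rose, 3 fell and 5 were not called. Markers of intestinal epithelium were high in both groups, with summed signals of 62272 to 68714 in heme mice and 63485 to 65397 in control mice, and 2 of 6 rose and 1 fell. Colonocyte markers, of the absorptive cells, had summed signals of 53612 to 59704 in heme mice and 48286 to 51905 in control mice, which do not overlap, and 2 of 5 rose and 1 fell. Of 4 tested smooth muscle markers 4 fell, with summed signals of 319.7 to 881.3 in heme mice and 580.9 to 5723 in control mice. In bulk tissue, fewer cells of a type and less RNA per cell cannot be told apart. All 7 tested mitosis genes rose (summed signals of 4744 to 6377 in heme mice and 2020 to 3600 in control mice), and all 4 goblet cell markers fell (56830 to 67748 in heme mice and 69245 to 81399 in control mice). The part of the colonocyte, mitosis and goblet cell markers in the results was not tested. Control mouse 2 was high in the fibroblast gene Dcn, at 10.41, and control mouse 4 low in the distal colon gene Hoxb13, at 3.77.

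Nearly all measured enzymes of cholesterol synthesis were higher in heme mice. Of 17 sterol synthesis enzymes tested 16 rose and none fell, beside 27.2% of all tested genes that rose, and 6 rose at least 2-fold, beside 2.98% of all genes. The rise was from 1.18-fold for Sc5d to 4.17-fold for Fdps, and the median log2 fold change of the 17 was 0.82. In 14 of the 17 all 9 heme mice lay above all 6 controls, beside 11.2% of all tested genes. The enzyme without a call was Dhcr7, a reductase of the last steps.

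**Figure D1:**
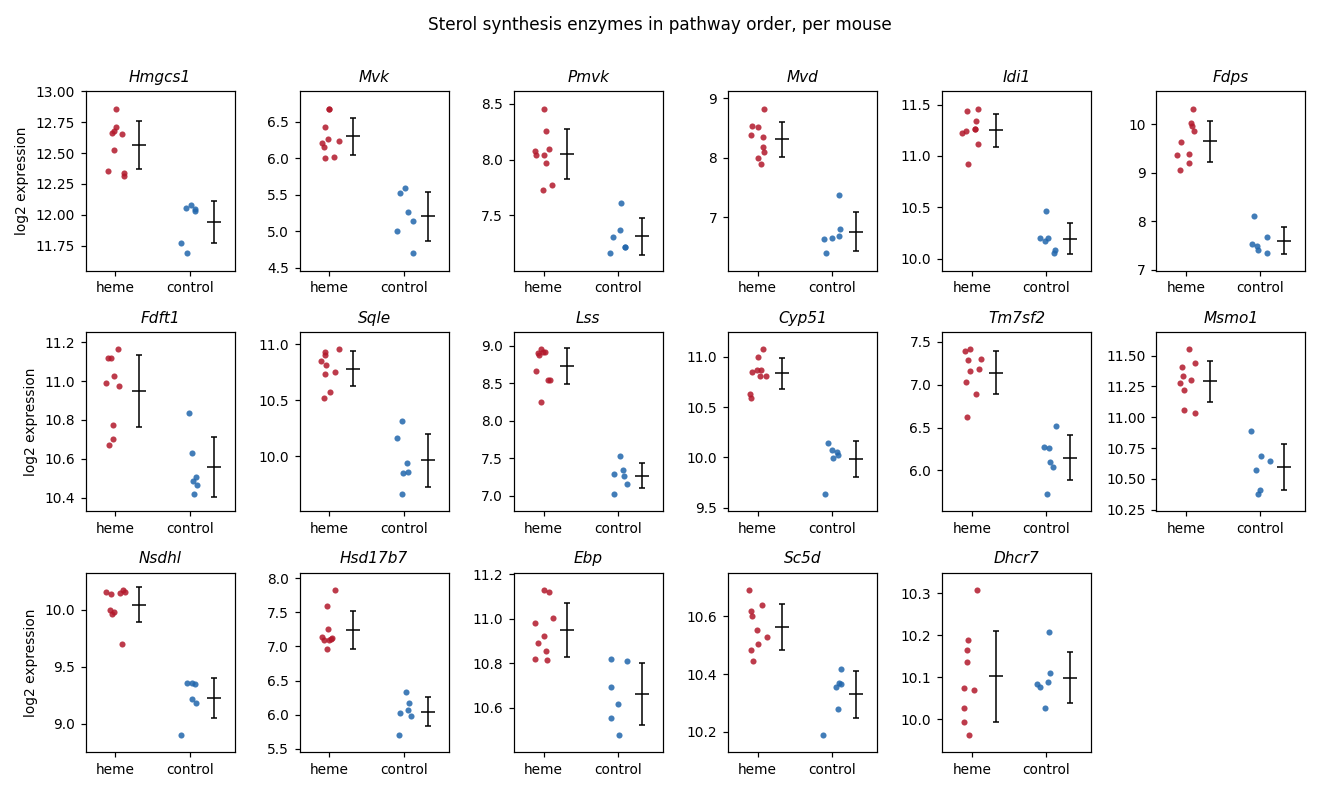
Log2 expression (vertical axis, own scale for each gene) of 17 sterol synthesis enzymes in 9 heme mice (red, left) and 6 control mice (blue, right). Each point is 1 mouse and bars show the mean ± SD. The groups are apart for 14 genes, overlap for Fdft1 and Ebp, and share 1 range for Dhcr7.

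The mevalonate and isoprenoid steps held the largest rises, and all 6 analysed enzymes rose with no overlap between the groups. Of all tested genes 27.2% rose, and 11.2% had all heme mice above all controls. HMG-CoA reductase was not analysed here. Farnesyl diphosphate synthase (Fdps), which builds the isoprenoid shared by sterols, ubiquinone and prenylated proteins, ran from 9.07 to 10.33 with a median of 9.63 in heme mice, and from 7.33 to 8.11 with a median of 7.51 in control mice. The difference was 2.06 on the log2 scale with an SE of 0.18 (adjusted p = 4.20e-07, limma), and the lowest heme mouse stood almost 1 log2 unit above the highest control. Mevalonate decarboxylase (Mvd), which makes isopentenyl diphosphate, ran from 7.90 to 8.83 (median 8.35) in heme mice and from 6.39 to 7.38 (median 6.67) in control mice. Its second probe set gave a difference of 1.41, close to the 1.55 of the one used. Mevalonate kinase (Mvk) ran from 6.01 to 6.68 (median 6.24) in heme mice and from 4.70 to 5.59 (median 5.20) in control mice, 2.13-fold higher. The isomerase Idi1 averaged 11.25 ± 0.16 in heme mice and 10.19 ± 0.15 in control mice (SD, n = 9 and 6), 2.08-fold higher (adjusted p = 1.19e-07, limma).

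The rises of the other enzymes of this stretch were smaller. Hmgcs1, the HMG-CoA synthase that opens the pathway, ran from 12.32 to 12.86 (median 12.66) in heme mice and from 11.69 to 12.08 (median 12.04) in control mice. Its log2 fold change was 0.62 ± 0.10 (SE, adjusted p = 6.69e-05, limma). The other 4 Hmgcs1 probe sets over the floor were also higher in heme mice, by 0.62 to 0.89. Phosphomevalonate kinase (Pmvk) averaged 8.05 ± 0.22 in heme mice and 7.31 ± 0.16 in control mice (SD), 1.67-fold higher.

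At the steps from farnesyl diphosphate to lanosterol, the gene of the last step rose most. Lanosterol synthase (Lss), which closes the sterol rings, ran from 8.25 to 8.95 (median 8.88) in heme mice and from 7.02 to 7.53 (median 7.28) in control mice. The groups did not overlap, and Lss was 2.75-fold higher (adjusted p = 8.99e-08, limma). Its second probe set gave a difference of 0.90 with groups that overlap. Squalene epoxidase (Sqle), which adds the oxygen that ring closure needs, ran from 10.52 to 10.96 (median 10.81) in heme mice and from 9.66 to 10.31 (median 9.90) in control mice, 1.77-fold higher. Squalene synthase (Fdft1), which commits farnesyl diphosphate to sterols, ran from 10.67 to 11.16 (median 10.99) in heme mice and from 10.42 to 10.84 (median 10.50) in control mice. Here the groups overlapped, with 6 of 9 heme mice above all controls (log2 fold change 0.39 ± 0.09, SE, adjusted p = 0.00192, limma).

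Between lanosterol and cholesterol 7 of 8 enzymes rose, beside 27.2% of all tested genes, and those near the end of the route moved least. The largest rise of the 8 was in Hsd17b7, the keto-reductase of the demethylation cycle, which ran from 6.97 to 7.83 (median 7.12) in heme mice and from 5.70 to 6.33 (median 6.05) in control mice. It was 2.30-fold higher, and its second probe set over the floor on at least 6 arrays differed by 1.26. The sterol reductase Tm7sf2 was 1.99-fold higher, the lanosterol demethylase Cyp51 1.80-fold, the dehydrogenase Nsdhl 1.76-fold and the methyl oxidase Msmo1 1.62-fold, and for these 4 genes no heme mouse overlapped a control. Cyp51 ran from 10.59 to 11.07 (median 10.85) in heme mice and from 9.64 to 10.14 (median 10.04) in control mice.

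The isomerase Ebp ran from 10.81 to 11.13 (median 10.92) in heme mice and from 10.48 to 10.82 (median 10.65) in control mice, so that 7 of 9 heme mice lay above all controls. The desaturase Sc5d averaged 10.56 ± 0.08 in heme mice and 10.33 ± 0.08 in control mice (SD). Its second probe set with signal was lower in heme mice, by 0.35, so the direction of Sc5d depends on the probe set, and the mean of its probe sets gave -0.011 (adjusted p = 0.878, limma). Dhcr7, which reduces dehydrocholesterol to cholesterol, ran from 9.96 to 10.31 (median 10.08) in heme mice and from 10.03 to 10.21 (median 10.09) in control mice. The log2 fold change of Dhcr7 was 0.0034 ± 0.056 (SE, adjusted p = 0.965, limma), with the control range inside the heme range.

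The promoters of these enzymes are shown because 16 of the 17 enzymes rose. Sequences are from RefSeq (GRCm38.p6), the 250 bases before each listed start, for 28 of the 34 analysed genes; Fdps, Fdft1, Sqle, Stard4, Scd1 and Scd2 had no entry used here. Both strands were searched for TCACNCCAC (a core of the sterol response element that SREBP binds), CCAAT (bound by NF-Y), GGGCGG (bound by Sp1) and the LXR element, a direct repeat of AGGTCA with 4 bases between. Hmgcs1 was the only sterol synthesis enzyme with TCACNCCAC in this window, Mvd and Lss had the largest rises among enzymes with an entry, and Abca1 is the tested member that fell most. They lie at chr13:119690101-119690350 (plus strand), chr8:122443423-122443672 (minus), chr10:76531355-76531604 (plus) and chr4:53159896-53160145 (minus), in that order. Each reads 5′ to 3′ on the gene's strand and ends at the base before the start, with matches to the first 3 motifs on either strand in capitals, and no match overlaps another.
Hmgcs1: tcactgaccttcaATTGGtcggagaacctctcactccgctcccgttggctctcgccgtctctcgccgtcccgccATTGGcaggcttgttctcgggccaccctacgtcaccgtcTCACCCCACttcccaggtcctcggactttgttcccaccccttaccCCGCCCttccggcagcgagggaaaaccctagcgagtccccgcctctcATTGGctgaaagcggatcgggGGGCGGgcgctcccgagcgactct
Mvd: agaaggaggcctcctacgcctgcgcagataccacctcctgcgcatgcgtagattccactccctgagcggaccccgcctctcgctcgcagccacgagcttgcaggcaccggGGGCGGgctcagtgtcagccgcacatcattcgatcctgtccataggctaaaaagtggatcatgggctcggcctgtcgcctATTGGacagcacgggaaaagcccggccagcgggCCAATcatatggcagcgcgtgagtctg
Lss: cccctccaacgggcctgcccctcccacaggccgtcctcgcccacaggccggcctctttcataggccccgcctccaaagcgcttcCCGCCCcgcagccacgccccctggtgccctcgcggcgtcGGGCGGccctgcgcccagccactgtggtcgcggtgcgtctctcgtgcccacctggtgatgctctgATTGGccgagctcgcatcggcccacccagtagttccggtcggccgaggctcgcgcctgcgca
Abca1: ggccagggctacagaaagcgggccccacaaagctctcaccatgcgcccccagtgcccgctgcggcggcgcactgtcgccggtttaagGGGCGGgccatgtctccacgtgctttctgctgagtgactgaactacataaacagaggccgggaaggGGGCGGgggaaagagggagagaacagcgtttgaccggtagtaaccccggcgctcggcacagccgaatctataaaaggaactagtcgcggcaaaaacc

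In Hmgcs1 the TCACNCCAC match begins 137 bases before the start, with CCAAT matches at 237, 176 and 45 bases and GGGCGG matches at 92 and 24 bases. Mvd has CCAAT matches at 60 and 27 bases, Lss has 1 at 62 bases, and Abca1 has none in this window. Of the 14 sterol synthesis enzymes with an entry 14 held CCAAT in at least 1 listed promoter, against 37.5% of all 27025 genes of the table. GGGCGG was in 13 of the 14, against 35.4% of all genes, and TCACNCCAC in 1 of 14, against 1.22%. Inexact copies of TCACNCCAC were not searched, so whether the other enzymes hold a sterol response element was not tested. Among the 5 fatty acid synthesis genes with an entry CCAAT was in 2, and among the 4 export genes it was in 1. Among the 5 sterol sensing genes, however, CCAAT was in 4 and GGGCGG in 5. Dhcr7, which was not called, also held both motifs, so they were not particular to the enzymes that rose. The exact LXR repeat was in 0 of the members' windows and in only 4 of all 27025 genes (0.0148%). A motif this rare could hardly be met in so few windows, and inexact copies were not searched. Whether Abca1 or another member holds an LXR element was thus not tested. A match of letters is a description and not a binding site.

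Fold changes of the genes that sense sterol were small. Of 5 such genes 3 rose and none fell, beside 27.2% and 26.4% of all tested genes. None had the groups apart and none rose by 2-fold. Insig1, which retains Scap and is itself a target of SREBP, ran from 9.42 to 10.31 (median 9.70) in heme mice and from 9.10 to 9.54 (median 9.37) in control mice. Its log2 fold change was 0.46 ± 0.13 (SE, adjusted p = 0.00693, limma), and 8 of 9 heme mice lay above all controls. Insig2, its relative, averaged 9.69 ± 0.15 in heme mice and 9.42 ± 0.22 in control mice (SD), with 3 of 9 heme mice above all controls. Other Insig2 probe sets, over the floor on all 15 arrays, differed by 0.34 and 0.57 with groups that overlap. The Insig2 call was lost without control mouse 2 (0.21, adjusted p = 0.0602) or control mouse 7 (0.25, adjusted p = 0.0545, limma).

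The factors themselves differed little. Srebf1 averaged 8.55 ± 0.11 in heme mice and 8.35 ± 0.10 in control mice (SD), 1.15-fold higher (adjusted p = 0.0109, limma), with 5 of 9 heme mice above all controls. Without control mice 2 and 4 and heme mouse 6, which earlier results of these data set apart, Srebf1 was at 0.15 (adjusted p = 0.0964, limma). Srebf2 ran from 8.57 to 9.37 (median 8.78) in heme mice and from 8.45 to 8.75 (median 8.61) in control mice, and was not called (0.21 ± 0.10, SE, adjusted p = 0.103, limma), while its second probe set differed by 0.0014. Scap, the escort, was not called either (0.07 ± 0.06, SE, adjusted p = 0.364). Messenger levels do not report the cutting of SREBP, which is the step that sterols control. With the mean of the smooth muscle markers as a covariate none of the 5 sensing genes was called. Insig1 was then at 0.45 ± 0.20 (SE, adjusted p = 0.0876) and Srebf1 at 0.18 ± 0.094 (adjusted p = 0.151, limma), close to their values without it but with larger SEs. Insig2 was at 0.07 ± 0.13 (SE, adjusted p = 0.684), a smaller difference than without it. The same 16 sterol synthesis enzymes were called with this covariate.

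Stard4, a carrier that moves cholesterol between membranes and a target of SREBP-2, went against the enzymes. It ran from 11.13 to 11.36 (median 11.21) in heme mice and from 11.29 to 11.57 (median 11.46) in control mice, with 8 of 9 heme mice below all controls. The log2 fold change was -0.22 ± 0.05 (SE, adjusted p = 0.00228, limma). Its other probe sets differed by -0.09 and 0.16, so the direction of Stard4 depends on the probe set, and their mean was not called (-0.051, adjusted p = 0.546, limma).

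**Figure D2:**
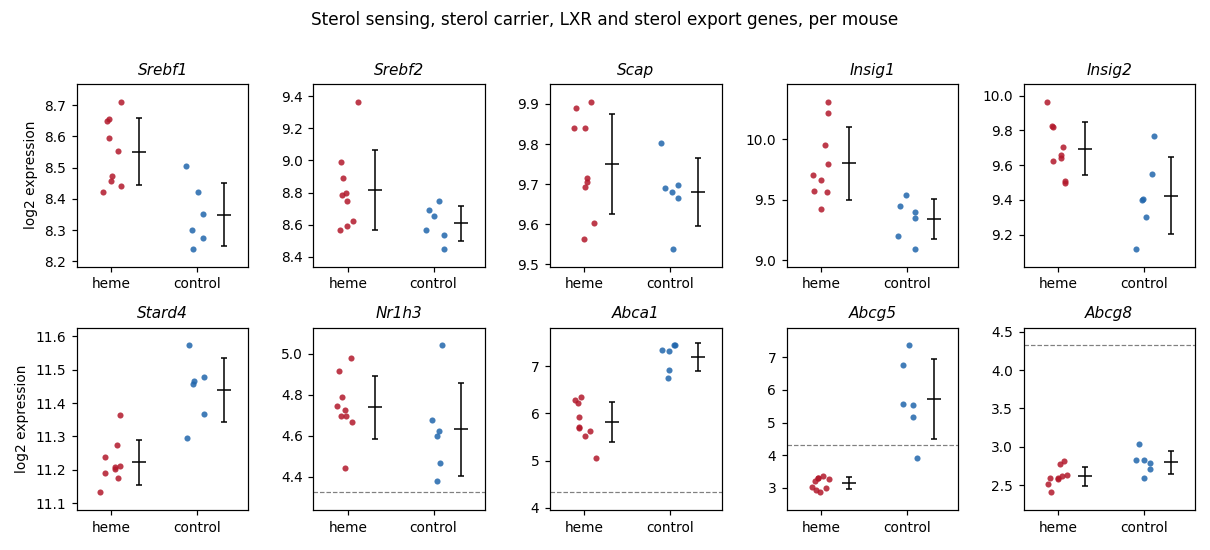
Log2 expression (vertical axis, own scale for each gene) of sterol sensing genes, Stard4, Nr1h3 and sterol exporters in 9 heme mice (red, left) and 6 control mice (blue, right). Points are mice, bars are the mean ± SD, and the dashed line is the signal floor of 4.32. Abca1 and Abcg5 of all heme mice lie below all controls, while the sensing genes overlap between groups.

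The members of fatty acid synthesis were split by step, with the genes that supply acetyl-CoA lower or not called and those of elongation and desaturation higher. Of 7 genes 5 rose, 1 fell and 1 was not called, beside 27.2% of all tested genes that rose and 26.4% that fell. The median log2 fold change of the 7 was 0.63. ATP citrate lyase (Acly), which makes acetyl-CoA from citrate, averaged 11.25 ± 0.14 in heme mice and 11.36 ± 0.28 in control mice (SD, n = 9 and 6; adjusted p = 0.397, limma), and was called lower with the distal Hox covariate (-0.21, adjusted p = 0.0237). Acss2, which makes it from acetate, ran from 9.59 to 10.005 (median 9.78) in heme mice and from 9.75 to 10.35 (median 10.20) in control mice. Its log2 fold change was -0.29 ± 0.09 (SE, adjusted p = 0.0156, limma) and 2 of 9 heme mice lay below all controls. A second Acss2 probe set with signal on all 15 arrays differed by -0.12. The call was lost with averaged probe sets (-0.15, adjusted p = 0.126) and with the replicate block (-0.27, adjusted p = 0.0923, limma). Adding the smooth muscle covariate left Acss2 at -0.097 (adjusted p = 0.574). Neither gene that supplies acetyl-CoA was called higher in any alternative.

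Acetyl-CoA carboxylase (Acaca), the committing enzyme, was 1.21-fold higher at 8.17 ± 0.20 in heme mice and 7.90 ± 0.15 in control mice (SD; adjusted p = 0.0221, limma). That call was lost without control mouse 7 (0.22, adjusted p = 0.0628) and on adding the smooth muscle covariate (0.30, adjusted p = 0.117). Fatty acid synthase (Fasn) ran from 10.10 to 10.44 (median 10.32) in heme mice and from 9.45 to 9.91 (median 9.67) in control mice. The groups were apart, and Fasn was 1.54-fold higher (adjusted p = 7.77e-06, limma). Elovl6, which lengthens palmitate to stearate, ran from 10.24 to 10.57 (median 10.37) in heme mice and from 9.15 to 9.71 (median 9.32) in control mice, 2.02-fold higher (adjusted p = 1.50e-07, limma). Its other 2 probe sets with signal differed by 1.06 and 0.52.

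The stearoyl-CoA desaturases, which place the double bond of oleate, both rose, with controls widely spread. Scd1 ran from 9.49 to 10.24 (median 9.89) in heme mice and from 7.98 to 9.78 (median 8.36) in control mice, higher by 1.24 ± 0.23 in log2 (SE; adjusted p = 3.77e-04, limma). Because control mouse 4 stood at 9.78, 6 of 9 heme mice lay above all controls on this probe set, while on a second one, with a difference of 1.99, all 9 did. Scd2 ran from 13.06 to 13.40 (median 13.18) in heme mice and from 11.64 to 13.04 (median 12.47) in control mice, 1.65-fold higher with no overlap. Control mouse 4 was thus the highest control for Scd1 and the lowest, at 11.64, for Scd2. That mouse, low in Hoxb13, was also the highest control for the adipocyte hormone gene Adipoq, at 7.75. Without it Scd1 was at 1.48 and Scd2 at 0.55 on the log2 scale, both called (adjusted p = 9.43e-06 and 5.32e-04, limma). With the smooth muscle covariate Scd2 was at 1.22 and Scd1 at 0.83 (adjusted p = 0.0606).

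Adipocyte markers, whose part in these values was not tested, had summed signals of 412.1 to 1928 in heme mice and 293.7 to 1344 in control mice. Of the 3 tested 1 rose, the lipid droplet gene Cidec, which enterocytes can also express. Adipoq ran from 2.60 to 7.67 in heme mice and from 3.19 to 7.75 in control mice, and the adipocyte markers Lep and Retn lay under the floor in all 15 mice. In heme mice the SD was smaller than in control mice for 6 of 7 fatty acid genes, with a median of 0.13 in heme mice and 0.24 in control mice. For the sterol synthesis enzymes it was smaller in 9 of 17, with a median of 0.19 in heme mice and 0.18 in control mice. These differences in spread were not tested.

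**Figure D3:**
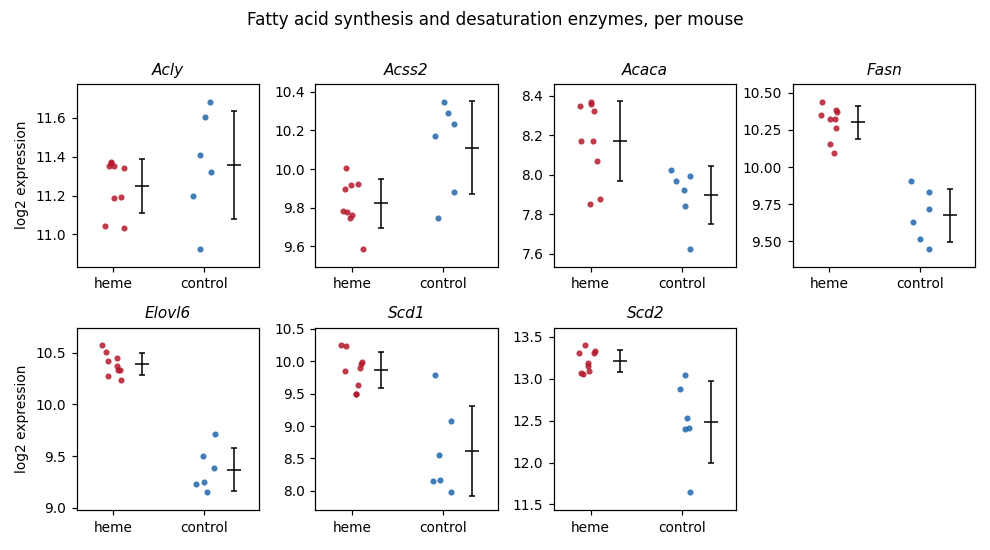
Log2 expression (vertical axis, own scale for each gene) of 7 fatty acid synthesis genes in 9 heme mice (red, left) and 6 control mice (blue, right). Points are mice and bars are the mean ± SD. Fasn, Elovl6 and Scd2 are apart between the groups, and 1 control mouse lies among the heme mice for Scd1.

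Of the 2 tested genes of sterol export 1 fell and 1 was not called. Abca1, which loads cholesterol onto apolipoprotein A-I, ran from 5.05 to 6.36 (median 5.70) in heme mice and from 6.76 to 7.44 (median 7.34) in control mice. All 9 heme mice lay below all controls, beside 8.93% of all tested genes that did so, and the log2 fold change was -1.39 ± 0.18 (SE, adjusted p = 1.93e-05, limma), a fall past 2-fold that 2.48% of all tested genes showed. Its other 2 probe sets were under the floor on most arrays. Nr1h3, which encodes LXR alpha and is a receptor that drives Abca1, was not called, at 4.74 ± 0.15 in heme mice and 4.63 ± 0.23 in control mice (SD; adjusted p = 0.351, limma), values close to the floor.

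Abcg5 and Abcg8 form a pair that returns sterols to the gut lumen. Abcg5 ran from 2.85 to 3.35 (median 3.204) in heme mice, all under the floor, and from 3.90 to 7.37 (median 5.55) in control mice. In control mice 5 of 6 lay over the floor, 1 array short of the rule for testing, and control mouse 4 was the one below. Taken against the floor, heme mice had at least 2.63-fold lower Abcg5. It was called only without the signal filter, with heme values all under the floor, so no p-value is given for it. Abcg8 was under the floor in all 15 mice, at 2.41 to 2.81 in heme mice and 2.60 to 3.04 in control mice, so no fold is given. With the smooth muscle covariate Abca1 was at -1.06 (adjusted p = 0.00592, limma).

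The rest of the pathway was read from a list of 39 further genes, of which 31 were matched to a probe set and 29 were tested. Of the 29, 15 rose, 7 fell and 7 were not called (median log2 fold change 0.39), beside 27.2% higher and 26.4% lower of all tested genes. Sterol uptake and trafficking counted 3 up and 2 down of 5. Scarb1, the receptor for high-density lipoprotein, was at 8.57 ± 0.23 in heme mice and 6.67 ± 0.37 in control mice (SD), 3.72-fold higher (adjusted p = 9.41e-08, limma), and Tmem97, a sterol-regulated membrane protein, was 2.18-fold higher. Lipa, the lysosomal acid lipase, was 1.59-fold higher, while Npc1 and Npc2, which carry cholesterol out of the lysosome, were lower, by 0.57 ± 0.15 and 0.40 ± 0.09 on the log2 scale (SE). The gene for geranylgeranyl diphosphate synthase (Ggps1), which draws isoprenoid away from sterols, was not called (-0.21 ± 0.12, SE, adjusted p = 0.160).

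Of 5 tested genes that process SREBP or turn over sterol sensing proteins 1 rose and 3 fell. Of all tested genes 27.2% rose and 26.4% fell. The proteases that cut SREBP moved apart, Mbtps2 up by 0.39 ± 0.07 and Mbtps1 down at -0.29 ± 0.04 (SE; adjusted p = 2.73e-04 and 7.36e-05, limma), although with the probe sets of Mbtps1 averaged it was at 0.0081. Among 4 tested partners and targets of LXR 1 rose and 1 fell, close to the shares of all tested genes. Mylip, a ubiquitin ligase for lipoprotein receptors, was at 5.99 ± 0.28 in heme mice and 7.77 ± 0.31 in control mice (SD), with a difference of -1.77 and an SE of 0.14 (adjusted p = 1.44e-07, limma). Lpcat3, which puts polyunsaturated chains into phospholipids, was at 11.73 ± 0.11 in heme mice and 10.77 ± 0.24 in control mice, 1.94-fold higher. The exporter Abcg1 (-0.11 ± 0.14, SE) and Apoe (0.43 ± 0.45) were not called.

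Around fatty acid synthesis 10 of 14 tested genes rose and 1 fell, beside 27.2% and 26.4% of all tested genes. Malic enzyme Me1, a source of the NADPH that synthesis uses, was 11.96-fold higher, at 10.40 ± 0.24 in heme mice and 6.82 ± 1.02 in control mice (SD). Acacb, the carboxylase whose malonyl-CoA restrains fatty acid oxidation, lay under the floor in all controls and was at least 3.09-fold higher. It passed the signal filter only through the heme mice, so no p-value is given for it. The counts of 10 of 14 here and of 15 of 29 further genes above include Acacb. The gene that fell was Mlxipl, the carbohydrate-sensing factor that also drives lipogenic genes, at 5.80 ± 0.30 in heme mice and 6.55 ± 0.09 in control mice. The citrate carrier Slc25a1 was higher by 0.45 ± 0.08 (SE, adjusted p = 1.35e-04, limma). Elovl1, Elovl7 and Fads1 rose, while Elovl5 (-0.036) and the desaturase Fads2 (-0.44, adjusted p = 0.106, limma) were not called. The split by step thus describes the members and not all of these further genes.

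**Figure D4:**
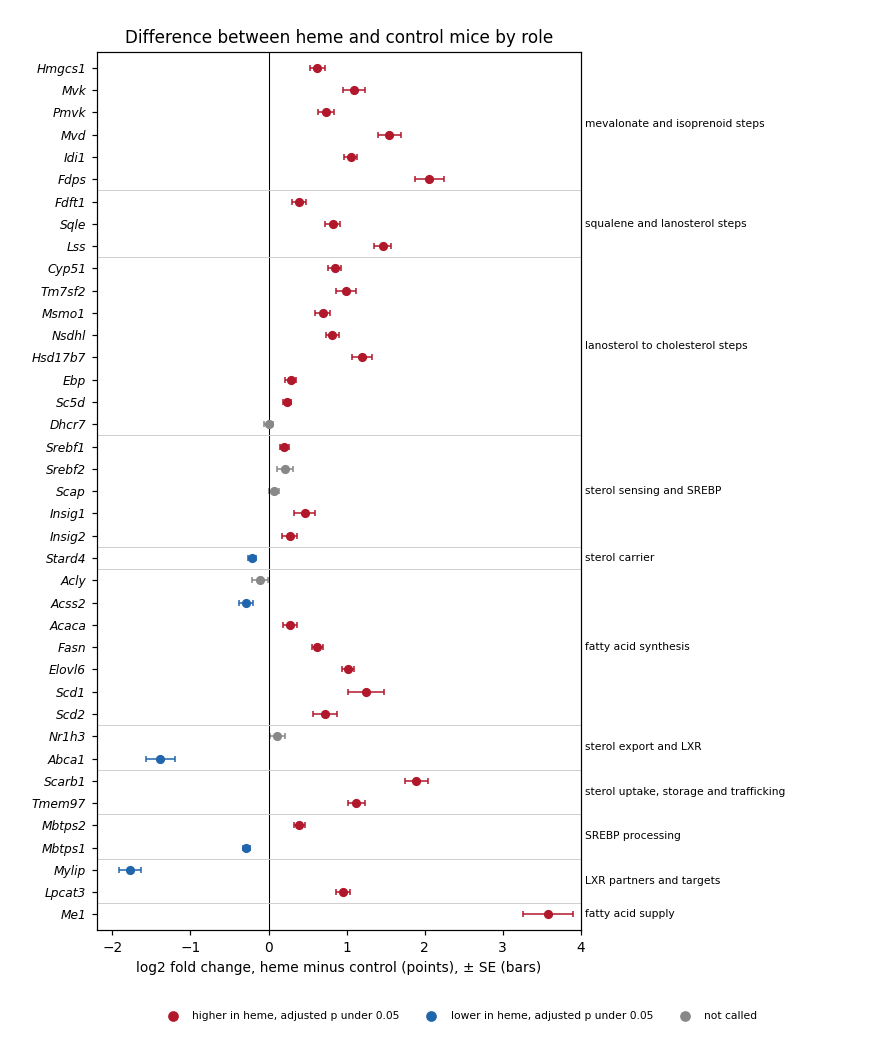
Log2 fold change of heme minus control (horizontal axis, points) with its SE (bars) for the 32 tested members and 7 further pathway genes, grouped by role. Sterol synthesis enzymes lie at or right of 0, from 0.0034 for Dhcr7 to 2.06 for Fdps, and Abca1 and Mylip lie furthest left at -1.39 and -1.77. Acacb is left out because its controls were under the floor.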

How the data were processed

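Colon scrapings of 15 mice were measured on 1 array each. The deposited log2 values, 1 per probe set, came from GCRMA 2.22.0 per the submitters' processing notes, a method whose background model uses probe sequence, so low values are estimates. Other upstream steps are not stated in the sources used. Of 45101 probe sets 34958 had 1 gene symbol and were used, and 932 with several and 9211 not listed were left out. Heme was compared with control over all 9257 tested genes by lmFit and eBayes of limma 3.58.1 (R 4.3.3), a procedure tested on simulated data. The number of arrays limits the precision. Where every mouse of a group lay under the floor, the fold was taken against the floor. The members, lists and alternatives were chosen with earlier results of these data known. Named were all members and the 2 called genes with the largest change of each further list; other genes, single mice and the promoters of Mvd and Lss were chosen after their values were seen. Replicate numbers did not pair the mice. The alternatives were the signal floor, probe set averaging, normalization, variance model, array weights, replicate block, array number, smooth muscle and distal Hox covariates and leaving out mice. Control replicate 5 was not analysed here.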

Additional observations from a re-analysis of the deposited data

Results flagged for a closer look

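In 68 groups of mice (34 members, heme and control) 3 held 1 value far from the others, where chance gives about 1 in 20 groups, or 3.4. Nsdhl in heme mouse 9 was at 9.70, below the other heme mice at 9.96 to 10.18. Idi1 in control mouse 3 was at 10.47, above the other controls at 10.05 to 10.20. Cyp51 in control mouse 7 was at 9.64, below the other controls at 9.997 to 10.14.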

How the results depend on the processing

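Of 17 sterol synthesis enzymes 16 rose in every alternative except a signal floor of 100, where 15 of 16 tested did, and averaged probe sets, where 15 of 17 did, and the count was 16 without each mouse in turn. Of the 32 tested members 20 held their call and direction in every alternative that tested them, 15 of them sterol synthesis enzymes. SREBP regulators and Stard4 counted 4 calls, against 1 with the smooth muscle covariate, where Insig1 (0.45) and Srebf1 (0.18) kept about their fold with larger SEs and Insig2 (0.07) did not, and 2 without control mice 2 and 4 and heme mouse 6. Fatty acid synthesis genes counted 6, against 3 with the smooth muscle covariate. Sterol export genes counted 1, against 2 without the signal filter, which adds Abcg5, under the floor in all heme mice. Leaving out each mouse, these 3 counts ran from 3 to 4, from 5 to 6 and from 1 to 1, other pathway genes from 20 to 22 and all genes from 4546 to 4990. The numbers of the mice did not pair them. Deviations of same-numbered mice correlated from -0.19 to 0.20, and 1 of 6 heme mice correlated best with the control of its number. With the replicate block 16 sterol synthesis, 3 regulator, 4 fatty acid and 1 export gene were called, and 3964 of all genes, against 4961 without it. Directions turned only for genes that were not called under that alternative. Dhcr7 was at -0.016 with quantile normalization, -0.022 with array weights, -0.024 with the replicate block, -0.0060 with the distal Hox covariate, -0.0066 without control mouse 2 and heme mouse 6, and -0.025 without these and control mouse 4. Leaving out each mouse, Dhcr7 ran from -0.022 to 0.025. Averaged probe sets turned Sc5d (-0.011), Scap (-0.070) and Mbtps1 (0.0081). The smooth muscle covariate turned Scap (-0.035), Acly (0.18) and Nr1h3 (-0.066). For Sc5d the turn came from a probe set over the floor on all 15 arrays that was lower in heme mice. For Scap averaging brought in a probe set over the floor on 0 of 15 arrays, which differed by -0.21. The cause of the other changes was not tested. Signal near the floor limits Nr1h3, Abcg5 and Abcg8.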

Other observations

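Single mice differed in how high their sterol synthesis enzymes stood within their group. Over the 17 enzymes heme mice had means of 9.52 to 9.88 on the log2 scale and control mice 8.66 to 9.01. Control mouse 3 was the highest control for 12 of the 17, and control mice 1 and 7 were each the lowest for 6. Heme mouse 9 was the lowest heme mouse for 6 of the 17, among them Fdps at 9.07, and the highest for Hmgcs1 (12.86) and Dhcr7 (10.31). The same mouse had the highest Srebf2 of all, at 9.37, and an Insig1 of 10.22, next to heme mouse 5 at 10.31. These are values of single mice, with no test.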
